A study of Mus musculus with 16 samples.

Results

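RNA of exosomes released by MC/9 mast cells during oxidative stress (oxi exo) was compared with RNA of exosomes released under normal conditions (norm exo). These were 8 of the 16 arrays of the series, the 4 titled as exosomes of H2O2 conditions and the 4 titled as exosomes of normal conditions, each with replicate numbers 1 to 4, and the other 8 arrays hold RNA of MC/9 cells. MC/9 is a mouse mast cell line that was grown in medium with fetal bovine serum and Rat T-Stim, a T cell supernatant, both spun beforehand to remove their exosomes. For oxi exo the cells were exposed to 125 µM H2O2 for 24 h, and for norm exo they received medium alone. In both groups debris was spun down, the supernatant was passed through a 0.22 µm filter, and vesicles were pelleted at 120000 g for 70 min before Trizol extraction of total RNA. The 2 groups therefore share the cell line, the medium and the isolation and differ in H2O2 and in what it did to the cells. The study reports that this dose killed a large share of the cells, so live donor cells may differ between the groups too. The part of cell death in the results was not tested. A single cell line is the source of all arrays, and since it is not stated for every replicate that it came from its own culture, p-values measure the spread between these samples, which may in part be technical.

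Exosomes are small vesicles that form by inward budding into late endosomes and are set free when these fuse with the cell surface. They carry proteins, messenger RNA and small RNA of the cell that made them, and can deliver these to other cells. Mast cells are tissue immune cells that bind IgE through a high-affinity receptor and store histamine, serotonin and proteases in granules. H2O2 enters cells, oxidises thiols, lipids and nucleic acids, and sets off antioxidant, p53 and protein folding responses.

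The background of the exosome arrays was high. It was taken on each array as the 95th percentile over 237 probe sets for 196 genes that mast cells do not use, such as olfactory receptors and keratin-associated proteins. The norm exo arrays had a background of 249.5 ± 23.6 (SD, n = 4) and the oxi exo arrays one of 279 ± 23.0, against 16.2 and 13.1 in the cells. A probe set was called well measured when its mean log2 signal over the 8 exosome arrays lay above the mean background of 264, which 2290 of 45037 probe sets did. Some probe sets of the background genes pass this cutoff too, so passing it alone does not show that a transcript was present. Across these 2290, Pearson's r of log2 signals was 0.904 to 0.953 between norm exo arrays, 0.748 to 0.870 between oxi exo arrays and 0.506 to 0.837 between an array of each group, given as a description. Across all 45037 probe sets it was 0.568 to 0.625, 0.533 to 0.578 and 0.519 to 0.578. Oxi exo array 4 stood apart: among the 567 well-measured probe sets called lower it held the lowest of the 4 oxi exo signals in 448 (79.0%), and without replicate 4 the number called was 457. The norm exo arrays were split too. Among the same 567 the highest norm exo signal was on array 1 in 249 (43.9%) and on array 2 in 288 (50.8%). It was on array 3 in 6 and on array 4 in 24. The 100 brightest probe sets held 15.7 ± 1.46% of the signal in norm exo and 10.3 ± 1.01% in oxi exo, without overlap (exact two-sided permutation p = 0.0286, the smallest that 4 against 4 allow; p = 0.1 adjusted over 14 array measures). The spiked controls (9 probe sets) had geometric mean signals of 13717 ± 1603 in norm exo and 13434 ± 1291 in oxi exo (exact permutation p = 0.943). These controls do not measure how much exosomal RNA was labelled. On the cell arrays of normal and H2O2 conditions (norm cell and oxi cell) they stood at 792 and 645. Signals and backgrounds of exosome and cell arrays are therefore not on 1 scale.

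Far more transcripts were lower than higher in exosomes after oxidative stress. Of all 45037 probe sets, 764 (1.70%) were lower and 14 (0.0311%) were higher in oxi exo at an adjusted p under 0.05. Of the 2290 well-measured probe sets, 567 (24.8%) were lower and 3 (0.131%) were higher. The falls among these 567 ran from log2 -0.78 to -2.72 with a median of -1.49, the signals of the 2 groups did not overlap in 544 of them, and 564 were lower in all 4 pairs of equal replicate number. Of the 567, 285 were above background on all 4 oxi exo arrays and 40 were below it on all 4. With 1 probe set per gene, 297 of 1362 well-measured genes were lower (21.8%), of all 18193 genes 382 (2.10%). Of the 1169 well-measured genes above background on all 4 norm cell arrays 297 were lower (25.4%). Counts in the gene lists below are to be read against these shares, and for genes bright in the cells against the larger shares by norm cell signal given below. The median log2 change over all well-measured probe sets was -0.28, and in the 4 pairs it was -0.48, -0.33, -0.23 and -0.38. For 1062 well-measured probe sets (46.4%) the 95% interval of the log2 change lay within -1 to 1, while for 266 it lay wholly below -1 and for 0 wholly above 1. The values are signals scaled on each array to a common mean, and only 2290 of 45037 probe sets were well measured. A signal is therefore relative to an array made up mostly of background, and is not a measured share of the labelled RNA. Less message in the labelled RNA as a whole, fewer vesicles with a transcript and less of it per vesicle cannot be told apart.

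The split into lower and higher moved with the scaling. After quantile normalization 174 well-measured probe sets were lower and 108 (4.72%) were higher, and when each array was centred on the median of the well-measured probe sets 398 were lower and 24 (1.05%) were higher. All 174 and all 398 of those falls were also called with the signals as deposited. Centring moved the median log2 change of all 45037 probe sets from 0.06 to 0.37.

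The share of transcripts that fell was larger the brighter they were in the cells. Of the 1862 well-measured probe sets that were above background on all 4 norm cell arrays, 567 (30.5%) were lower in oxi exo, with a median log2 change of -0.48. Of the 428 others, 0 were lower and 1 was higher by limma, 18 and 39 at an unadjusted p under 0.05, and their median was 0.12. In 5 groups of 458 probe sets ordered by their signal on the norm cell arrays, which the exosome comparison did not use, 0, 15, 74, 161 and 317 were lower, and the median log2 changes were 0.11, 0.11, -0.29, -0.72 and -1.34. The order held in each of the 4 pairs between group 3 and group 5, and with quantile normalization the medians were 0.34, 0.37, -0.08, -0.43 and -0.62. The mean exosome signal moved with this order, since among the dimmest 458 probe sets by mean exosome signal 23 were lower and among the brightest 458 it was 271, and the part of brightness in the result was not tested.

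**Figure D1:**
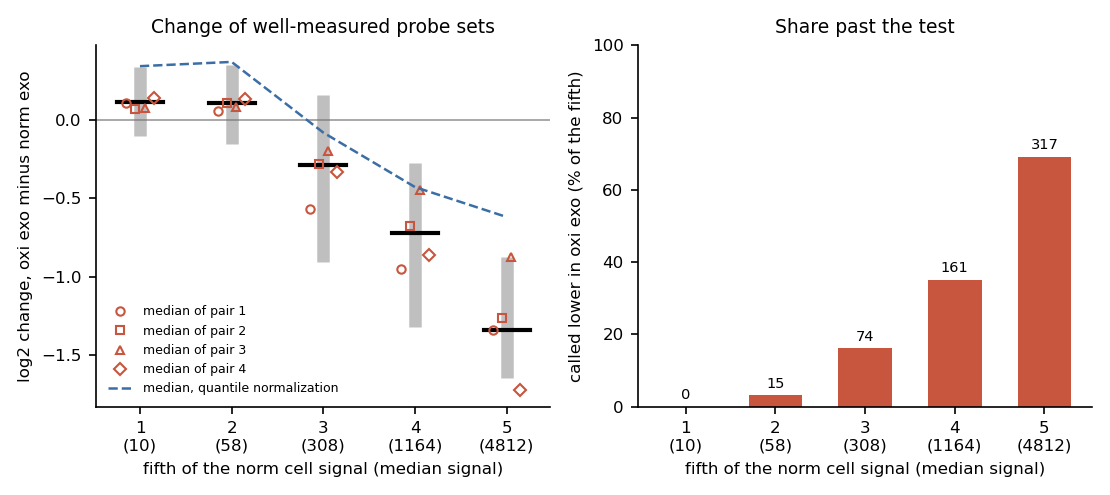
Change in exosomes by the signal of the same probe set in norm cell. Left, log2 change (oxi exo minus norm exo) of the well-measured probe sets in 5 groups of 458, with the median (black), the middle 50% of probe sets (grey), the medians of the 4 pairs (red) and the median after quantile normalization (blue, dashed); right, percent of each group called lower, with its number above the bar. The median goes from 0.11 in the 2 dimmest groups to -1.34 in the brightest, where 317 were lower.

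Transcripts that mark mast cells were among those that fell. On norm cell arrays Fcer1a stood at 10917, Ms4a2 at 4858, Cpa3 at 9928, Gata2 at 3691 and Hdc at 804. The brightest group of 458 probe sets described above starts at 2116. In it 69.2% were lower, with a median log2 change of -1.34. All of these genes but Hdc lay in that group's range, so their changes are to be read against its share. Both well-measured chains of the high-affinity IgE receptor were lower. Fcer1a, the chain that binds IgE, had signals of 2005, 2122, 1153 and 1597 on norm exo arrays 1 to 4 and 709.8, 535, 376 and 279 on oxi exo arrays 1 to 4. All 4 oxi exo values lay below the lowest norm exo value, a 3.75-fold fall (log2 -1.91 ± 0.22 SE, adjusted p = 0.000265). Ms4a2, the beta chain that strengthens the receptor's signal, was at 1319, 977, 655 and 816 in norm exo and 193, 333, 277 and 174 in oxi exo, again without overlap (log2 -1.95 ± 0.28 SE, adjusted p = 0.000677), and 3 of its 4 oxi exo values were at or below the array's background. Both calls held without each replicate in turn, after quantile normalization and after centring. The third chain, Fcer1g, was not well measured, and of the other markers that define mast cells Cpa3, Hdc and Gata2 were and Kit, Tpsb2 and Tpsab1 were not.

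Of 15 granule protease and proteoglycan genes, 2 were well measured and both fell. They were Srgn, the proteoglycan core on which granule contents are packed, with signals of 641 ± 165 in norm exo and 274 ± 91.5 in oxi exo (SD, n = 4; log2 -1.25 ± 0.26 SE, adjusted p = 0.0149), and Cpa3, the mast cell carboxypeptidase, with 629 ± 245 in norm exo and 281 ± 101 in oxi exo (log2 -1.15 ± 0.25 SE, adjusted p = 0.0201). Srgn was above background on 1 of the 4 oxi exo arrays and Cpa3 on 2. Their norm cell signals of 7659 and 9928 lay in the range of the brightest group of 458 probe sets. Both fell less than that group's median log2 change of -1.34. Both calls ended after quantile normalization, after centring, with scaling to the spiked controls and without replicate 1, where the adjusted p were 0.0892 and 0.0853. Srgn was also lost without replicate 4 (adjusted p = 0.0782) and Cpa3 without replicate 2 (adjusted p = 0.133) and without the replicate block (adjusted p = 0.0964). Of 11 genes for mediator synthesis and storage 3 were well measured and 2 of these fell. Tph1, which makes the serotonin precursor, fell from 1287, 1315, 1004 and 869 to 377, 434, 352 and 359.8 (log2 -1.54 ± 0.21 SE, adjusted p = 0.000639), and its 4 oxi exo values lay within 352 to 434. Hdc, the enzyme that makes histamine, fell from 508 to 163 (log2 -1.76 ± 0.31 SE, adjusted p = 0.00371), and 1 of its 4 oxi exo values was above the array's background. Alox5, the first enzyme of leukotriene synthesis, was above background on all 4 norm exo arrays and on none of the oxi exo arrays, at least 1.5-fold apart, but missed the threshold (adjusted p = 0.079; without the replicate block it passed, adjusted p = 0.0404). The granule amine transporter Slc18a2 was called lower without being well measured.

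Among 12 genes of Kit and the cytokine receptors, 3 were well measured and 2 fell. Csf2rb, the shared signalling chain of the IL-3, IL-5 and GM-CSF receptors, was the brightest of them, with 5894, 4674, 3358 and 3538 on norm exo arrays 1 to 4 and 1131, 2401, 1694 and 993 on oxi exo arrays 1 to 4. The groups were separate in spite of the spread among the oxi exo values (log2 -1.54 ± 0.23 SE, adjusted p = 0.000911). Its close paralog Csf2rb2, whose probe set may share sequence with it, was below background on all 4 oxi exo arrays and at least 1.80-fold lower (log2 -1.18 ± 0.27 SE, adjusted p = 0.0345; not past the test without replicate 1, 2 or 4, adjusted p = 0.106, 0.23 and 0.116). Csf2ra, the GM-CSF binding chain, had overlapping signals of 515 ± 151 in norm exo and 529.6 ± 100.2 in oxi exo and a 95% interval of -0.43 to 0.60. In IgE receptor signalling 2 of 3 well-measured genes fell. These were the adaptor Lat (from 1048 to 527, log2 -1.01 ± 0.21 SE, adjusted p = 0.0147, lost without replicate 1, 2 or 4, adjusted p = 0.0923, 0.0558 and 0.0534) and the small GTPase Rac2 (from 667 to 191, log2 -1.91 ± 0.33 SE, adjusted p = 0.00331). The phosphatase Inpp5d stood at 236 ± 46.8 in norm exo and 375 ± 101 in oxi exo and did not pass. Of the lineage transcription factors, Lyl1 fell (from 700.1 to 286, log2 -1.32 ± 0.25 SE, adjusted p = 0.00746), whereas Gata2 at 703 ± 147 in norm exo and 381 ± 59.5 in oxi exo had separate groups but an adjusted p of 0.112. After quantile normalization Csf2rb, Csf2rb2, Lat and Lyl1 were no longer past the test. Rac2 and Lyl1 were each above background on 1 of the 4 oxi exo arrays.

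**Figure D2:**
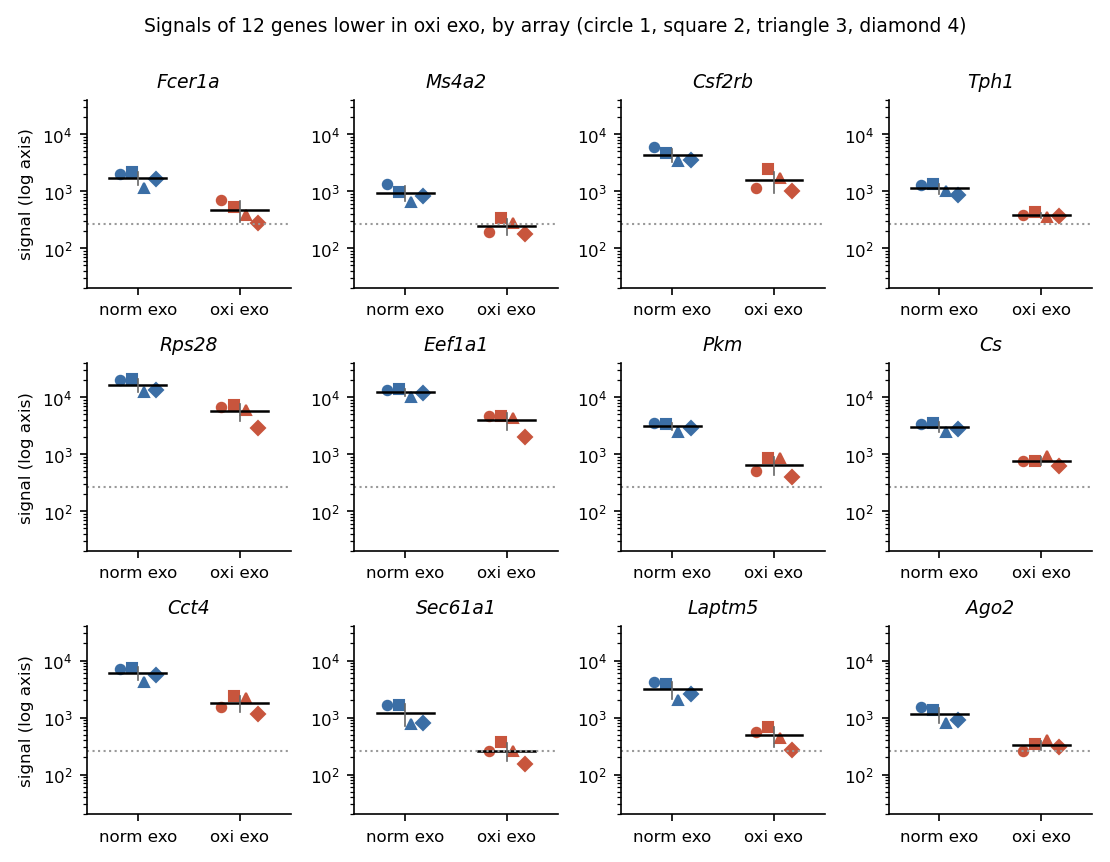
Signals of 12 genes on the 8 exosome arrays (log axis), with norm exo in blue and oxi exo in red; the symbol gives the replicate number, the black line the mean, the grey bar the SD and the dotted line the mean background of 264.3. In all 12 genes every oxi exo signal lies below every norm exo signal, and in Fcer1a, Ms4a2, Sec61a1, Laptm5 and Ago2 at least 1 oxi exo signal is near or below the background.

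Cytosolic ribosomal proteins had the largest number of well-measured genes of the lists, and almost all of these fell. Of 45 cytosolic ribosomal protein genes on the array 38 were well measured, and 35 were lower and 0 higher, with a median log2 change of -1.52 against -0.27 over all well-measured genes. Of the 38, 34 had a norm cell signal in the range of the brightest group of 458 probe sets described above, in which the median was -1.34 and 69.2% were lower. All 38 had a negative change. The brightest was Rps28, a small subunit protein, with signals of 20362, 20564, 12404 and 13202 on norm exo arrays 1 to 4 and 6762, 7256, 5987 and 2913 on oxi exo arrays 1 to 4. The 4 oxi exo values were all below the lowest norm exo value, and oxi exo array 4 was the lowest (log2 -1.58 ± 0.20 SE, adjusted p = 0.000362). Rps29 (from 15088 to 5276, log2 -1.54 ± 0.20 SE, adjusted p = 0.000392) and Rps18 (from 11814 to 4243, log2 -1.57 ± 0.22 SE, adjusted p = 0.000746), both small subunit proteins, did the same, and none of these 3 was past the test after quantile normalization. The well-measured members that did not pass were Rpl7a (log2 -0.42), Rpl39 (-0.37) and Rps27l (-0.68), the last of which is a p53 target. The count of 35 was 32 without replicate 1, 2 or 4, 32 with centring and 32 with scaling to the spiked controls, and 7 after quantile normalization. Ribosomal protein genes have many processed pseudogenes, and their probe sets may also read these.

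Translation factors fell in part. Of 32 genes 19 were well measured and 12 fell (median log2 -1.17), and 5 were past the test after quantile normalization. Eef1a1, Tpt1 and Eef2 had norm cell signals of 9915, 9754 and 5080, in the range of the brightest group of 458 probe sets. In that group 69.2% were lower, with a median log2 change of -1.34. Eef1a1, which brings aminoacyl-tRNA to the ribosome, had 13257, 13718, 10149.6 and 12131 on norm exo arrays 1 to 4 and 4631, 4742, 4329.5 and 2027 on oxi exo arrays 1 to 4. Its first 3 oxi exo values lay close together and array 4 was lower still, with no overlap with norm exo (log2 -1.71 ± 0.21 SE, adjusted p = 0.000345). Eef2, the translocation factor, fell to 1302, 1332, 1261 and 707 from 5726, 5606, 3804 and 4301 (log2 -2.10 ± 0.19 SE, adjusted p = 0.000156). Tpt1, a translation-associated growth protein, fell from 6593 to 2607 (log2 -1.37 ± 0.19 SE, adjusted p = 0.000662; not past the test after quantile normalization). Eif3f, a subunit of the initiation complex eIF3, was below background on all oxi exo arrays and at least 2.63-fold lower (log2 -2.51 ± 0.39 SE, adjusted p = 0.00145). Of the related lists, 0 of 4 well-measured mitochondrial ribosomal protein genes and 0 of 5 of ribosome biogenesis were called, the latter with a median of 0.13. Npm1, a nucleolar chaperone, had separate groups (1276, 1482, 1061 and 1172 against 865, 980.2, 951 and 785) but a small change (log2 -0.47, interval -0.88 to -0.06, adjusted p = 0.416).

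Many messages of the translation machinery begin with an unbroken run of pyrimidines, the 5′ terminal oligopyrimidine tract, through which growth signals set their translation. The starts annotated by RefSeq on GRCm38.p6 were searched for a run of at least 8 bases that are each C or T. The run had to reach within 5 bases of the start, on the strand that reads as the transcript. Such a run was held by 19 of 40 cytosolic ribosomal protein genes with a promoter in the table (47.5%), 5 of 23 translation factor genes (21.7%) and 3068 of all 27025 genes (11.4%). Among well-measured genes it was held by 48 of 241 called lower (19.9%) and 121 of 878 not called (13.8%). With the ribosomal protein genes left out, 35 of 211 genes called lower held it (16.6%). Where a gene had several annotated starts, the one with the longest run was read. These shares are descriptions, and a run of letters is not a shown tract. The starts used in these cells were not measured, so lack of a run at an annotated start does not show that a message lacks a tract. The 30 bases around the start, 15 on each side, are printed for 4 called genes with a run, in capitals, and for 2 called genes without one at the annotated start.
Rps18: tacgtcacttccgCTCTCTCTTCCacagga
Rpl35: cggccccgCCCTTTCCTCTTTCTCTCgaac
Eef1a1: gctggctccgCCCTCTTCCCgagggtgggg
Eif3f: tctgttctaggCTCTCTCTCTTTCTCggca
Rps28: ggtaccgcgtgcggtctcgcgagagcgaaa
Eef2: tataaaaggccgggcgttgacgtcagcggt
They lie at chr17:33955651-33955680, minus strand (Rps18), chr2:39005117-39005146, minus strand (Rpl35), chr9:78481710-78481739, minus strand (Eef1a1), chr7:108934400-108934429, plus strand (Eif3f), chr17:33824548-33824577, minus strand (Rps28) and chr10:81176616-81176645, plus strand (Eef2). The log2 changes of these genes were -1.57, -1.53, -1.71, -2.51, -1.58 and -2.10.

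Some genes of energy metabolism fell in the oxi exo RNA. In glycolysis 6 of 8 well-measured genes were lower (median log2 -1.30), with 2 lower after quantile normalization, 4 with centring and 4 without replicate 4. Pkm, Pgk1 and Ldha had norm cell signals of 4542, 6570 and 6783, in the range of the brightest group of 458 probe sets. In that group 69.2% were lower, with a median log2 change of -1.34. Pkm, the last enzyme of the pathway, had 3552, 3459, 2506 and 2921 on norm exo arrays 1 to 4 and 518, 848, 860.0 and 408 on oxi exo arrays 1 to 4, and all oxi exo values lay below the lowest norm exo value (log2 -2.30 ± 0.23 SE, adjusted p = 0.000156). Pgk1 (from 3501 to 1121) and Ldha (from 2962 to 1122), which make ATP and lactate, changed by log2 -1.70 (adjusted p = 0.000519) and -1.42 (adjusted p = 0.000864). In the tricarboxylic acid cycle 2 of 4 well-measured genes fell, Cs and Mdh2. Cs, citrate synthase at the entry of the cycle, was at 3472, 3592, 2418 and 2778 in norm exo and 759, 766, 938 and 635 in oxi exo and its groups were separate (log2 -1.98 ± 0.20 SE, adjusted p = 0.00017). Mdh2, the mitochondrial malate dehydrogenase, fell from 4556 to 1414 (log2 -1.71 ± 0.20 SE, adjusted p = 0.00027), and the cytosolic Mdh1 stood at 455 ± 139 in norm exo and 276 ± 89.4 in oxi exo with an adjusted p of 0.432. Pgk1, Ldha and Mdh2 were not past the test after quantile normalization.

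In respiratory complexes II to V 12 of 25 well-measured genes fell (median log2 -0.98). The count was 7 without replicate 1 or 2, 6 with centring and 2 after quantile normalization. In complex I, beside 21.8% of all well-measured genes, 2 of 6 fell (median -0.86), and 1 without replicate 1, 2 or 4. They were Ndufb11 (from 711 to 265, log2 -1.47 ± 0.26 SE, adjusted p = 0.0042) and Ndufb5 (from 609 to 201, log2 -1.82 ± 0.43 SE, adjusted p = 0.041), whose groups overlapped and whose call was lost without replicate 1, 2 or 4 (adjusted p = 0.288, 0.0606 and 0.175). Atp5a1, a catalytic subunit of ATP synthase, had 5492, 5579.6, 3722 and 4369.8 on norm exo arrays 1 to 4 and 1381, 2429, 1894 and 1023 on oxi exo arrays 1 to 4, separate in all arrays (log2 -1.57 ± 0.21 SE, adjusted p = 0.000484). Atp5d, from the stalk of the same enzyme, fell from 1788 to 862 (log2 -1.05 ± 0.19 SE, adjusted p = 0.00505; without replicate 2 log2 -0.99, adjusted p = 0.0586). Cycs, cytochrome c, was not called, with 1344 ± 334 in norm exo and 1448 ± 330.2 in oxi exo, overlapping groups and an interval of -0.35 to 0.58, but was called higher after quantile normalization (log2 1.01, adjusted p = 0.0416). In the pentose phosphate pathway, which supplies NADPH, Tkt fell from 1727 to 521 (log2 -1.73 ± 0.22 SE, adjusted p = 0.000345). Atp5a1, Ndufb5 and Atp5d were not past the test after quantile normalization. Ndufb5 was above background on 2 of the 4 oxi exo arrays.

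Protein folding genes fell in part. Of the 8 subunits of the CCT chaperonin, which folds actin and tubulin, 7 were well measured and 5 fell (median log2 -1.67; 3 after quantile normalization, 4 without replicate 1). Cct4 had 7101, 7524, 4279 and 5479.5 on norm exo arrays 1 to 4 and 1525, 2426, 2223 and 1169 on oxi exo arrays 1 to 4, all oxi exo values below all norm exo values (log2 -1.76 ± 0.21 SE, adjusted p = 0.000319). Tcp1 fell from 2958 to 917 (log2 -1.67 ± 0.19 SE, adjusted p = 0.000252). The norm cell signals of Cct4, Tcp1 and Cct3 were 2504, 2280 and 4421, in the range of the brightest group of 458 probe sets. In that group 69.2% were lower, with a median log2 change of -1.34. Cct3 overlapped, since oxi exo array 2 at 1872 lay above norm exo array 3 at 1785 (log2 -1.15 ± 0.21 SE, adjusted p = 0.00503; without replicate 1 log2 -1.01, adjusted p = 0.0645). In the endoplasmic reticulum 3 of 8 well-measured genes fell, beside 21.8% of all well-measured genes. Sec61a1, the pore of the translocon, had 1676, 1632, 772 and 804 on norm exo arrays 1 to 4 and 259, 378, 258 and 156 on oxi exo arrays 1 to 4, a 4.56-fold fall with no overlap, 3 of the 4 oxi exo values being at or below the array's background (log2 -2.19 ± 0.24 SE, adjusted p = 0.000229). P4hb, a protein disulfide isomerase, fell from 1550.3 to 584 (log2 -1.42 ± 0.21 SE, adjusted p = 0.00102). Of 3 well-measured heat shock genes Hspa8 fell from 3098 to 1668 with overlapping groups (log2 -0.96 ± 0.20 SE, adjusted p = 0.015; lost without replicate 1 or 4, adjusted p = 0.105 and 0.0589, and without the replicate block, adjusted p = 0.0871; log2 0.04 after quantile normalization), while Hsp90aa1 stood at 358 ± 61.6 in norm exo and 367 ± 105 in oxi exo. Cct4, Cct3 and P4hb were not past the test after quantile normalization.

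No gene of the lists that respond to oxidative stress was called higher in the exosomes, where only 1 of all 1362 well-measured genes was called higher. Of 22 genes in the list of p53 targets 2 were well measured and both fell, while Rps27l, a p53 target read with the ribosomal proteins, did not pass. The 2 were Ccng1, a cyclin-like regulator, with 801, 826, 694 and 727 on norm exo arrays 1 to 4 and 352, 459, 214 and 128 on oxi exo arrays 1 to 4 (log2 -1.56 ± 0.28 SE, adjusted p = 0.0052), and Ei24, an ER protein of autophagy, with 1769, 1581, 1093 and 1094 in norm exo and 634, 905, 682 and 538 in oxi exo (log2 -1.0 ± 0.21 SE, adjusted p = 0.015; not past the test without replicate 1 or 2, adjusted p = 0.142 and 0.0561). All Ccng1 and Ei24 values were separate, and both calls ended after quantile normalization. Of 4 well-measured NRF2 targets Tkt and the iron storage chain Fth1 fell, the latter to 566, 719, 545 and 126 from 1841, 1805, 1131 and 1252 (log2 -1.85 ± 0.30 SE, adjusted p = 0.00193), with oxi exo array 4 far below the rest. Pgd at 482 ± 121 in norm exo and 240.2 ± 127 in oxi exo did not pass (adjusted p = 0.141). Of the enzymes that remove peroxide and superoxide, Prdx4 (from 1105 to 327, log2 -1.76 ± 0.24 SE, adjusted p = 0.000496) and Sod1 (from 1246 to 522, log2 -1.33 ± 0.22 SE, adjusted p = 0.0027) fell, and Txn1 at 399.7 ± 137 in norm exo and 247 ± 105 in oxi exo did not pass. Of 5 well-measured genes of the ATF4 response and tRNA charging 1 was lower, near the 21.8% of all well-measured genes. Kars, lysyl-tRNA synthetase, fell from 789.9 to 267 (log2 -1.58 ± 0.27 SE, adjusted p = 0.00288), whereas Phgdh, the first enzyme of serine synthesis, stood at 592 ± 47.8 in norm exo and 733 ± 186 in oxi exo with an interval of -0.18 to 0.75. In none of the 50 gene lists was a gene called higher by limma with the signals as deposited, beside 4 of all 18193 genes. After quantile normalization 7 lists had 1 or 2 genes called higher, and Fth1 and Sod1 were no longer called lower. Ccng1 and Kars were above background on 2 of the 4 oxi exo arrays.

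Genes for endosomes, lysosomes and the exosome itself were called lower in shares that are to be read against the 21.8% of all well-measured genes. Of 6 well-measured tetraspanins and membrane proteins 1 fell, Itgb7, an integrin chain of leukocytes (from 1005 to 395, log2 -1.36 ± 0.23 SE, adjusted p = 0.00252), and Lamp1 at 493 ± 168 in norm exo and 324 ± 68.9 in oxi exo did not pass. Of 5 genes of endosomal sorting 1 fell, Chmp4b, which builds the filament that cuts vesicles from the membrane (from 1061 to 383, log2 -1.45 ± 0.22 SE, adjusted p = 0.00132). In the lysosome 4 of 10 fell (median log2 -0.81), and 2 without replicate 1. Laptm5, a lysosomal membrane protein of blood cells, had 4159, 3901, 2023 and 2568 on norm exo arrays 1 to 4 and 564, 695, 445 and 266 on oxi exo arrays 1 to 4. It showed a 6.53-fold fall with no overlap (log2 -2.71 ± 0.21 SE, adjusted p = 3.64e-05), and stayed past the test under every limma alternative run on it, while the methods' paired test called no probe set after Benjamini-Hochberg adjustment. Grn, the precursor of granulins, fell from 1287 to 357 (log2 -1.79 ± 0.24 SE, adjusted p = 0.000527). Of 5 well-measured autophagy genes 0 passed; Map1lc3b was at 499.6 ± 146 in norm exo and 337 ± 98.7 in oxi exo and Sqstm1 at 461 ± 86.8 in norm exo and 313 ± 107 in oxi exo.

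In the actin cytoskeleton 10 of 20 well-measured genes fell (median log2 -0.87; 5 after quantile normalization). Actg1 had 3809.7, 3519, 2413 and 2809 in norm exo and 1241, 1429, 1166 and 575 in oxi exo, with all oxi exo values below norm exo (log2 -1.56 ± 0.21 SE, adjusted p = 0.000496). Tmsb10, an actin-binding peptide, fell from 3434 to 1982, a smaller change (log2 -0.78 ± 0.18 SE, adjusted p = 0.0378) that was lost without replicate 1, 2 or 4 (adjusted p = 0.243, 0.269 and 0.109) and without the replicate block (adjusted p = 0.0925), and was log2 0.29 after quantile normalization. Of 3 well-measured tubulins Tubb5 fell from 1735 to 682 (log2 -1.34 ± 0.19 SE, adjusted p = 0.00065). Ago2, the Argonaute that cuts RNA under the guidance of microRNA, had 1517, 1337, 788 and 923 on norm exo arrays 1 to 4 and 257, 338, 398 and 310.2 on oxi exo arrays 1 to 4, which put the highest oxi exo value below the lowest norm exo value (log2 -1.78 ± 0.26 SE, adjusted p = 0.000842), while Ago3 at 458 ± 86.8 in norm exo and 404 ± 41.3 in oxi exo and Tnrc6a at 495 ± 26.8 in norm exo and 535 ± 134 in oxi exo did not pass. In cholesterol and fatty acid synthesis 3 of 4 fell: the desaturase Scd2 (from 4366 to 1071, log2 -2.05 ± 0.20 SE, adjusted p = 0.000156), the isoprenoid enzyme Fdps (from 1428 to 323, log2 -2.10 ± 0.23 SE, adjusted p = 0.000186) and the cholesterol carrier Stard4 (from 967 to 325, log2 -1.59 ± 0.26 SE, adjusted p = 0.0021). Actg1, Tubb5 and Itgb7 were not past the test after quantile normalization.

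Some genes of proliferation fell. All 4 well-measured DNA replication genes were called lower (2 without replicate 4, 1 with centring and 1 after quantile normalization), among them Rpa1, which coats single-stranded DNA (from 1240.3 to 386, log2 -1.66 ± 0.26 SE, adjusted p = 0.00136), and Mcm7 of the replicative helicase (from 848 to 367, log2 -1.22 ± 0.23 SE, adjusted p = 0.00696). Fen1, the flap endonuclease, ran the other way in replicate 2, where norm exo was 420.2 and oxi exo 656 against 1271 to 1356 and 236 to 255 in the others (log2 -1.64 ± 0.40 SE, adjusted p = 0.0454; lost without replicate 1, 3 or 4, adjusted p = 0.277, 0.189 and 0.22). Ccnd2, a cyclin of G1, had 8599, 8072, 6126 and 6753 on norm exo arrays 1 to 4 and 2710.1, 2525, 2457 and 1729.9 on oxi exo arrays 1 to 4, separate between the groups (log2 -1.66 ± 0.18 SE, adjusted p = 0.000186). Ccnd2, Mcm7 and Fen1 were not past the test after quantile normalization. Fen1 was above background on 1 of the 4 oxi exo arrays. Cdc20 and Mki67, which act in mitosis, did not pass (adjusted p = 0.365 and 0.431). Of 5 well-measured proteasome genes 1 was called lower, and 0 without replicate 1, 2 or 4, whereas Psmd11, a lid subunit, was at 1023 ± 132 in norm exo and 1197 ± 66.1 in oxi exo with an interval of -0.17 to 0.64. Of 10 splicing factors and hnRNP proteins 0 were called, with a median of -0.12. After quantile normalization Hnrnpf (log2 1.03, adjusted p = 0.00949) and Ptbp1 (log2 1.18, adjusted p = 0.0113) of these and Psmd11 (log2 1.04, adjusted p = 0.0172) were called higher. Of the remaining lists, immediate early genes had 1 of 4 well-measured genes lower, the signalling inhibitor Spred1 (from 584 to 276, log2 -1.19 ± 0.28 SE, adjusted p = 0.0408; lost without replicate 1, 3 or 4, adjusted p = 0.195, 0.0974 and 0.202). Spred1 was above background on 1 of the 4 oxi exo arrays. Iron storage and uptake had 2 of 2 lower, Fth1 and Pcbp2 (log2 -2.01 ± 0.36 SE, adjusted p = 0.0046), and neither after quantile normalization. The apoptosis machinery (3 well-measured genes), long noncoding RNAs (3) and histones (1) had 0 lower, and no transcript of the mitochondrial genome or of endogenous retroviruses was well measured.

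**Figure D3:**
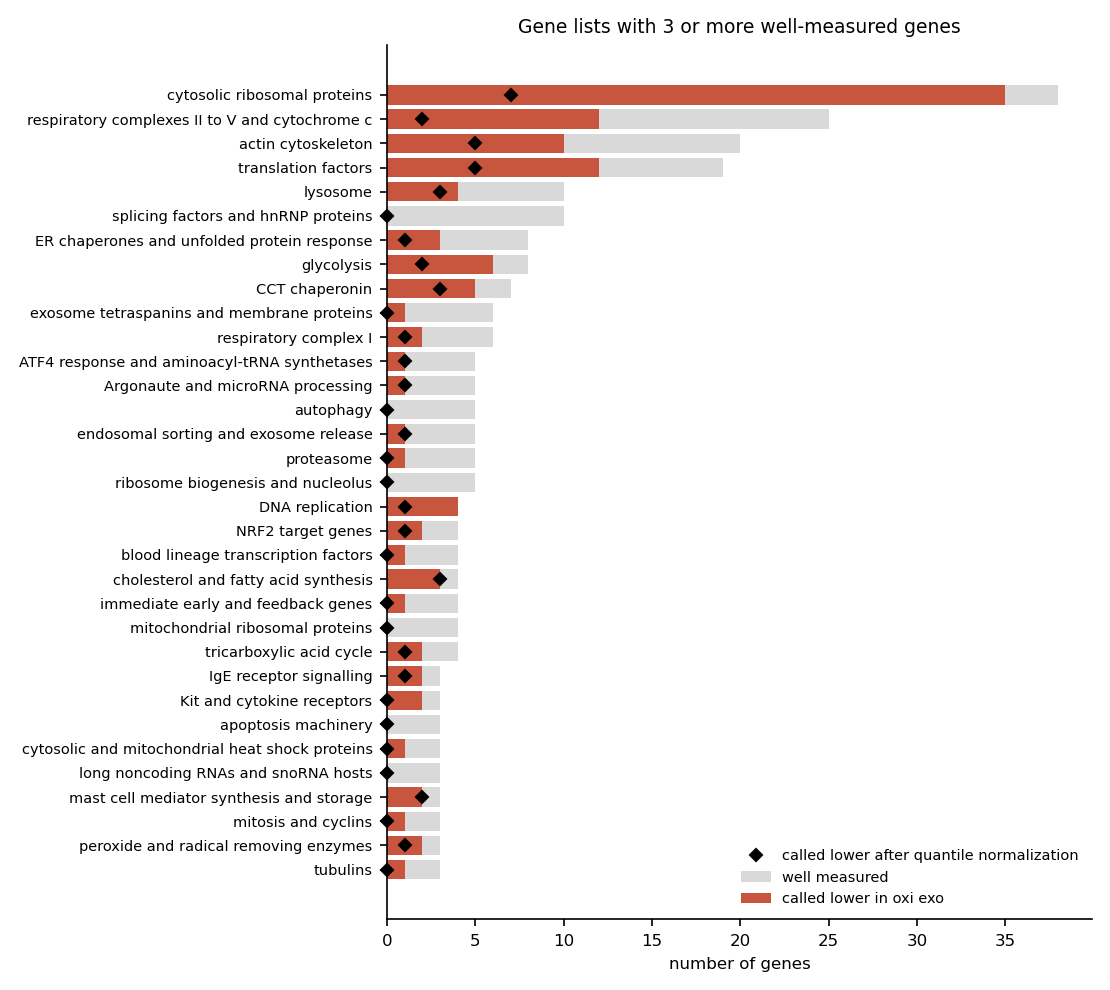
Gene lists with 3 or more well-measured genes. Grey bars give the number of well-measured genes, red bars the number called lower in oxi exo and diamonds the number called lower after quantile normalization; counts are over well-measured genes, and 35 of 38 cytosolic ribosomal proteins and 6 of 8 glycolysis genes were lower, and 0 of 10 splicing factors and hnRNP proteins.

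Some of the largest falls reached the background. Of the 15 with 1 gene symbol, 6 were above background on all norm exo arrays and on none of the oxi exo arrays, so that their fall is a lower bound. The largest was in Dnpep, an aspartyl aminopeptidase, with 1239, 1428, 669 and 881 on norm exo arrays 1 to 4 and 150.4, 309, 166 and 72.0 on oxi exo arrays 1 to 4 (log2 -2.72, adjusted p = 0.000186), but a second Dnpep probe set was at 2321 ± 372 in norm exo and 1327 ± 477 in oxi exo and missed the threshold (adjusted p = 0.0599). Ssr3, of the translocon-associated complex, was at least 3.54-fold lower by its dimmer probe set (log2 -2.49 ± 0.26 SE, adjusted p = 0.000186), and its other probe set gave log2 -1.23 (adjusted p = 0.01; not past the test without replicate 1 or 2, adjusted p = 0.0648 and 0.0934, or after quantile normalization). Gsn, which cuts actin filaments, was at least 2.23-fold and at least 2.90-fold lower by its 2 probe sets. Lasp1, an actin-binding adaptor, was at least 2.5-fold lower, with norm exo values of 711, 749, 652 and 671 and oxi exo values of 139, 230.2, 108 and 81.4, and Nsmf at least 2.38-fold. Of the 7 well-measured Lasp1 probe sets 5 were called lower, by log2 -1.21 to -2.42, and the brightest of them fell from 2744 to 767 (log2 -1.88 ± 0.28 SE, adjusted p = 0.00101; after quantile normalization adjusted p = 0.0631). Rps15, a small subunit ribosomal protein, fell to 767, 778, 696 and 135 from 2427, 2922, 1911 and 2686, with oxi exo array 4 far below the other 3 (log2 -2.33 ± 0.34 SE, adjusted p = 0.000909; after quantile normalization adjusted p = 0.0556). The second well-measured Rps15 probe set, which stands for the gene among the ribosomal proteins, gave log2 -1.26 (adjusted p = 0.00199). Lgals1, a secreted galactose-binding lectin, fell from 1317 to 298 (log2 -2.28 ± 0.28 SE, adjusted p = 0.000319), and Mapk14, the stress kinase p38, from 599.7 to 153 (log2 -2.31 ± 0.45 SE, adjusted p = 0.00944). Of 207 genes with 2 or more well-measured probe sets, 162 (78.3%) had all of them on the same side of 0, and of 121 with a probe set called lower 111 had all below 0.

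Few transcripts were higher in oxi exo. The 3 well-measured probe sets called higher were Cysrt1, Kcnh3 and Klhdc3. Cysrt1, a cysteine-rich protein, had 219.6, 249, 365 and 250.5 on norm exo arrays 1 to 4 and 876, 766, 385 and 681 on oxi exo arrays 1 to 4; the groups were separate by a small gap, with norm exo 3 and oxi exo 3 close to each other (log2 1.28 ± 0.30 SE, adjusted p = 0.0377). Kcnh3, a potassium channel subunit, was below background on all norm exo arrays at 190.4, 217, 191 and 195 and at 452, 524, 397 and 493 in oxi exo, which is at least 1.87-fold higher (log2 1.23 ± 0.27 SE, adjusted p = 0.0255). A second Kcnh3 probe set stood at 434 ± 222 in norm exo and 844 ± 225 in oxi exo with overlapping groups (adjusted p = 0.113). Klhdc3, a kelch-repeat protein, had 306, 399.9, 419.5 and 216 on norm exo arrays 1 to 4 and 862, 784, 529 and 819 on oxi exo arrays 1 to 4 (log2 1.18 ± 0.27 SE, adjusted p = 0.0331). Each of the 3 lost its call without replicate 1, 2 or 4, with adjusted p in that order of 0.257, 0.168 and 0.132 for Cysrt1, 0.0917, 0.107 and 0.105 for Kcnh3, and 0.185, 0.0763 and 0.192 for Klhdc3. Kcnh3 and Klhdc3 also lost it with scaling to the spiked controls. With centring, Prrc2c, an RNA-binding protein of stress granules, was also called, from 1262, 1004, 919.8 and 964 to 1384, 2693, 1705 and 1464 (log2 1.07, adjusted p = 0.00968; with signals as deposited log2 0.76, adjusted p = 0.117). Its 4 oxi exo values all lay above the norm exo values. The norm cell signals of Cysrt1 and Kcnh3 were 24.0 and 36.6, and that of Klhdc3 was 400.5.

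A set of bright transcripts had a 95% interval of the change within -1 to 1. The 12 brightest probe sets of this kind with 1 gene symbol had norm cell signals of 46.2 to 1926, and 11 of them had overlapping groups. Signals of exosome and cell arrays were scaled separately and are given side by side. Hnrnpab, an hnRNP protein, had 13140.3, 10178, 7629.8 and 7705 on norm exo arrays 1 to 4 and 7598, 10991, 6792 and 5016 on oxi exo arrays 1 to 4, with overlapping groups and a log2 change of -0.37 (interval -0.78 to 0.05). Mtm1, a phosphoinositide phosphatase, was at 5090.3, 5673, 7703 and 7739 in norm exo and 8606, 6716, 9134 and 10086 in oxi exo (interval 0.02 to 0.79), beside 219.6 in norm cell, and a second Mtm1 probe set at 2284 ± 191 in norm exo and 2396 ± 285 in oxi exo. Ntmt1, an N-terminal methyltransferase, stood at 3959 ± 477 in norm exo and 5196 ± 1353 in oxi exo and at 62.2 in norm cell. Shmt1, of folate metabolism, was at 3482 ± 1189 in norm exo and 4707 ± 1692 in oxi exo and at 155 in norm cell. Bzw2 (3666 ± 918 in norm exo and 4088 ± 883 in oxi exo) and Aplp2 (3168 ± 429 in norm exo and 3472 ± 623 in oxi exo) were at 93.4 and 229 in norm cell. After quantile normalization 10 of the 12 were called higher, among them Mtm1, Ntmt1, Shmt1, Bzw2 and Aplp2. The splicing regulator Hnrnpf stood at 1521 ± 242 in norm exo and 1627 ± 128 in oxi exo, with 3436 in norm cell. The share of well-measured probe sets with an interval within -1 to 1 was 70.8% among those not detected in norm cell and 40.8% among those detected.

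**Figure D4:**
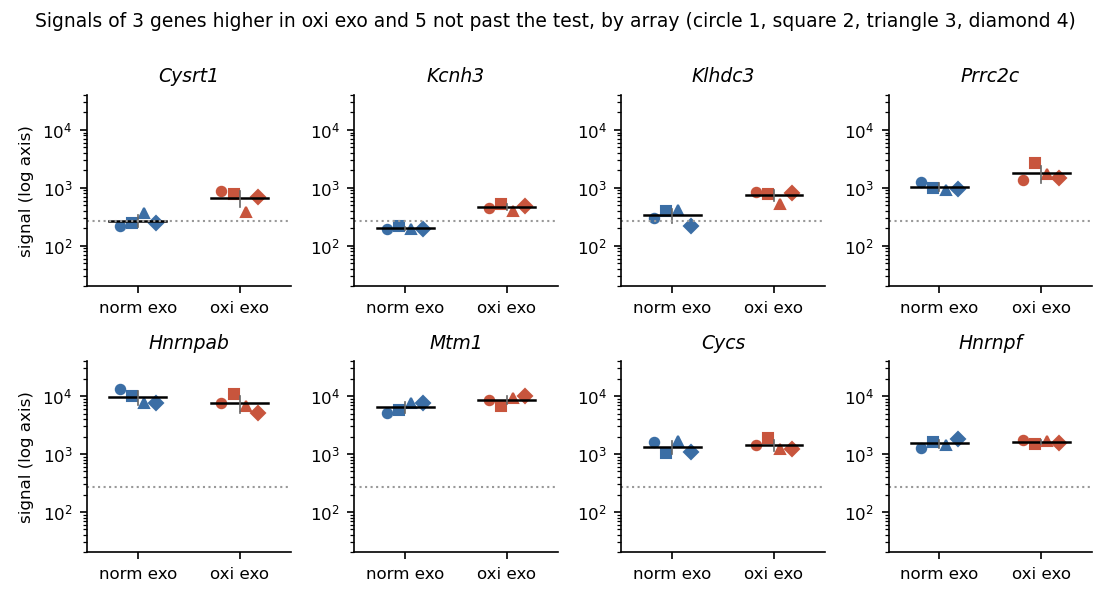
Signals on the 8 exosome arrays (log axis) of the 3 genes called higher (Cysrt1, Kcnh3, Klhdc3) and of 5 genes not past the test with the signals as deposited; colours, symbols, lines and bars as in the plot of falls by array. Kcnh3 lies below the dotted background line on the 4 norm exo arrays, and the groups of Hnrnpab, Mtm1, Cycs and Hnrnpf overlap.

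Most falls in exosomes were not called in the cells. The same fit on the 8 cell arrays, which share no sample with the exosome arrays, called 2483 probe sets lower (5.51%) and 1941 higher (4.31%). Of the 567 well-measured probe sets lower in oxi exo, 182 were lower and 77 higher in oxi cell and 308 were not called, with a median log2 change of -0.09 in cells against -1.49 in exosomes. All 567 were among the 1862 well-measured probe sets detected in norm cell. Of these 1862, 413 were lower and 221 higher in oxi cell, with a median log2 change in cells of -0.11. The change in exosomes was below that in cells past the test for 530 of all probe sets (1.18%) and above it for 13 (0.0289%). It was below for 354 of the 567. The 567 were picked for their fall in exosomes, so the contrast of medians and the 354 are in part set by that choice. Across the 1862 probe sets detected in norm cell, Pearson's r between the 2 changes was -0.25, as a description across probe sets. The labels call the cells recipients of exosomes, whereas the study's methods use them as the donors.

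Of the 150 probe sets chosen by the naming rule, 12 were past the test in both in opposite directions, and for 10 the difference itself passed. Ccng1 fell in exosomes and rose in cells, at 1799 ± 35.9 in norm cell and 3125 ± 163 in oxi cell (log2 0.80, adjusted p = 2.86e-05; difference -2.35 ± 0.34 SE, adjusted p = 0.0157). Hdc was at 804 ± 46.9 in norm cell and 1198 ± 45.6 in oxi cell (log2 0.58, adjusted p = 0.000301; difference -2.34 ± 0.35 SE, adjusted p = 0.0162). Ei24 was at 485 ± 22.8 in norm cell and 762 ± 17.4 in oxi cell (log2 0.65, adjusted p = 9.78e-05; difference -1.65 ± 0.29 SE, adjusted p = 0.0253). The cell changes of Sec61a1 (log2 0.28), Tcp1 (0.26), Mdh2 (0.28), Kars (0.25) and Atp5a1 (0.19) were small rises. By list, 28 of 45 proteasome genes, 25 of 35 complex I genes, 16 of 33 genes of the ATF4 response and tRNA charging, 9 of 22 p53 targets and 6 of 8 CCT genes rose in oxi cell. Of these lists 5, 6, 5, 2 and 7 genes in the same order were well measured in exosomes, none of them called higher. Only 1 of all 1362 well-measured genes was called higher in exosomes. Other lists had falls in both kinds of sample, with 8 of 14 glycolysis genes, 11 of 27 genes of cholesterol and fatty acid synthesis, all 3 IgE receptor chains and 7 of 15 granule protease and proteoglycan genes lower in oxi cell, where 1 granule gene was higher. Cytosolic ribosomal proteins fell in both, 25 genes in cells with a median log2 change of -0.22 and 35 in exosomes, and 28 fell further in exosomes past the test of the difference.

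**Figure D5:**
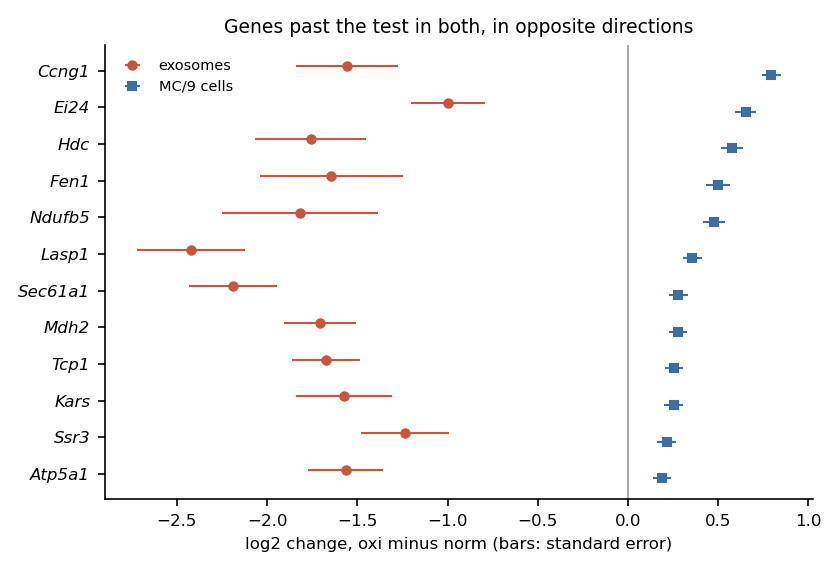
Log2 change (oxi minus norm) in exosomes (red circles) and in MC/9 cells (blue squares) of the 12 probe sets past the test in both in opposite directions; bars are standard errors, n = 4 arrays per group. All exosome changes lie between -2.42 and -1.0 and all cell changes between 0.19 and 0.80.

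Markers of other cells and of serum were also read. In macrophages and neutrophils, erythroid cells, fibroblasts and endothelium, and liver and serum proteins, 0 of 65 marker genes on the array were well measured. Among T lymphocyte markers 2 of 18 and among B lymphocyte markers 1 of 12 were well measured, namely Zap70, Bcl11b and Ighm, and none was called with the signals as deposited. Zap70, a T cell kinase, had 889, 768, 782 and 786 in norm exo and 817, 985, 1223 and 1333 in oxi exo and 24.7 in norm cell, and was called higher after quantile normalization (log2 1.17, adjusted p = 0.0153), and Ighm 524 ± 70.4 in norm exo and 532 ± 96.6 in oxi exo and 40.5 in norm cell. The summed signal of the T lymphocyte list was 2165 to 2506 in norm exo and 2357 to 2963 in oxi exo, and that of the IgE receptor chains 2056 to 3484 and 513 to 1067. Of the 196 background genes 10 were well measured and 0 were called, with a median log2 change of 0.22 among the 10. The cutoff for well measured was taken from these same genes, so the number of them that pass was largely set in advance. Beside these 10 of 196, 1362 of all 18193 genes were well measured. Passing the cutoff alone therefore does not show that a transcript was present in the exosomes. The part of these markers and background genes in the results was not tested. Of the 2 lists taken from the study's own tables of changed genes in these samples, 0 of 13 induced genes on the array were well measured. These had a median log2 change of 1.26, and 0 were called with the signals as deposited, 2 were higher with centring and 2 with log2(signal + 100). Of 20 repressed genes 12 were well measured, of which 6 were called lower. Since they were chosen on these arrays, they are no independent evidence of a direction.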

How the data were processed

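RNA of 8 exosome samples (4 norm exo, 4 oxi exo) and 8 MC/9 cell samples was measured on Affymetrix mouse arrays. The deposited intensity of each probe set is the MAS5.0 signal that the authors computed, with GCOS 1.2 per the submitters' processing notes. It is linear and was scaled on each array. Groups and replicate numbers follow the sample titles. Of 45101 probe sets 64 controls were left out, and 45037 were tested on log2 signal with limma 3.58.1 (R 4.3.3; lmFit, and eBayes with trend), the replicate number as a blocking factor, and Benjamini-Hochberg adjustment over all 45037, threshold 0.05. Arrays were compared by exact permutation tests (scipy 1.17.1). The fit was tested on simulated data. GEO's platform table gave 34945 probe sets 1 gene symbol, 932 several and 9160 none, and genes are named only from the first kind. A gene in a list is read by its brightest probe set in exosomes.

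A group below background on all 4 arrays gives only a bound on the fold change. Named genes were up to 3 of highest signal per list, the 15 largest falls and all rises past the test, the 12 brightest probe sets with an interval within -1 to 1, and the 12 largest rises with centring. Rpl7a, Rpl39, Rps27l, Rpl35, Eif3f as a sequence and Slc18a2 were named after their values were seen. The members and the 50 gene lists were chosen with earlier results of these data known. Start sites were taken from RefSeq promoters on GRCm38.p6. Alternatives were the block, the scaling, a pseudocount of 100, a floor, filters, the methods' paired test and leaving out each replicate. The number of arrays limits the precision.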

Additional observations from a re-analysis of the deposited data

Results flagged for a closer look

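In 328 groups of 4 values, not all of them of the 150 named probe sets, the highest or lowest value was set against the others. In 26 of the 328 its gap to the nearest other value took more than 0.829 of the range of the group, where chance gives about 1 in 20. All 26 were of named probe sets, read on log2 signals. Each case is given with its signal, the range of the other 3 signals and the share of the log2 range taken by the gap. In 12 of the 26 the signal was that of oxi exo array 4 and lay below the others, in Fth1 (126 against 545 to 719, 0.842), Eef1a1 (2027 against 4329.5 to 4742, 0.893), Tpt1 (1432 against 2814 to 3138, 0.861), Eef2 (707 against 1261 to 1332, 0.914), Atp5d (774 against 882 to 898, 0.884) and Mdh1 (144 against 302 to 339, 0.866), and in Pcbp2 (71.0 against 324 to 386, 0.897), Psma5 (493 against 797 to 809, 0.969), Mcm7 (240.3 against 395 to 419.8, 0.89), Tuba1a (229 against 507 to 559, 0.891), Rps15 (135 against 696 to 778, 0.936) and Lgals1 (108 against 332 to 399, 0.86). Norm exo array 3 lay below the others in Csf2ra (292 against 563 to 622, 0.867), Mrps33 (270.0 against 312 to 321, 0.83), Atp6v0b (397 against 712 to 795, 0.84) and Gm6958 (3279.5 against 4302 to 4422, 0.908). Oxi exo array 2 lay below the others in Hsp90aa1 (212 against 405 to 445, 0.87), 2610005L07Rik (1702 against 3648 to 3820.3, 0.943) and Clec1a (276 against 696 to 818, 0.85). The remaining cases were Inpp5d on norm exo 3 (above the others, 306 against 206 to 217, 0.865), Fen1 on norm exo 2 (below the others, 420.2 against 1271 to 1356, 0.945), Fen1 on oxi exo 2 (above the others, 656 against 236 to 255, 0.921), Ptbp1 on norm exo 4 (below the others, 612 against 875 to 929.7, 0.854), Zap70 on norm exo 1 (above the others, 889 against 768 to 786, 0.846), Psg28 on norm exo 4 (above the others, 885 against 529 to 571, 0.851) and Smr2 on norm exo 2 (above the others, 288 against 173 to 178, 0.948). Both Fen1 cases are of replicate 2, as the values above show, and a reason was not tested.

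The change in exosomes was lower than that in cells for 530 probe sets and higher for 13 by limma on the differences within pairs. Among the named genes that were past the test in both kinds of sample in opposite directions, the log2 change in exosomes minus that in cells was past the test for Hdc (-2.34), Ei24 (-1.65), Ccng1 (-2.35), Kars (-1.83), Sec61a1 (-2.47), Tcp1 (-1.93), Ndufb5 (-2.30), Atp5a1 (-1.75), Mdh2 (-1.99) and Lasp1 (-2.78). For Ssr3 (-1.45) and Fen1 (-2.14) the difference missed the threshold (adjusted p = 0.0545 and 0.0664).

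The probe sets for 18S ribosomal RNA, which the comparison of messages does not use, were bright in exosomes. On norm exo arrays the means were 2240 ± 359 for the 3′ probe set, 1234 ± 236 for the 5′ probe set and 10980 ± 1103 for the middle one (SD, n = 4). On oxi exo arrays the middle probe set was at 8348 ± 3122 (exact two-sided permutation p = 0.2), and on norm cell arrays it was at 87.0 ± 17.4. Exosome and cell arrays were scaled separately, and the spiked controls stood at 13717 on norm exo and 792 on norm cell arrays.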

How the results depend on the processing

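Lower calls outnumbered higher calls for well-measured probe sets under quantile normalization (174 lower, 108 higher), with centring on the well-measured median (398, 24), with scaling to the spiked controls (445, 1), with log2(signal + 100) (670, 7), with signals floored at background (826, 127), among probe sets above background on all 8 arrays (285, 0) and, in an alternative chosen after seeing the data, when tested alone (814, 50). Of all probe sets the counts were 276 lower and 115 higher after quantile normalization, 468 and 62 with centring, 579 and 8 with scaling to the spiked controls, 1000.0 and 39 with log2(signal + 100), and 950.0 and 2626 with the floor, which lifts signals below background on each array to a background that was higher in oxi exo. Without 1 replicate, 484 to 802 of all probe sets were lower and 8 to 20 higher (484 and 8 without replicate 1, 8 without replicate 4), and 409 to 610 of the well-measured ones were lower and 0 to 5 higher. The methods' paired test gave 2151 lower and 1529 higher of all probe sets on linear signals and 1985 and 1440 on log2 signals without adjustment, of the well-measured ones 803 and 102, and 777 and 100, and after Benjamini-Hochberg 0 and 0 in each case. The median log2 change of the well-measured probe sets, -0.28, was -0.0138 after quantile normalization, 0.0241 with centring and -0.18 with the floor, and -0.26 to -0.33 when 1 replicate was left out. Of the 150 named probe sets, 15 changed sign after quantile normalization, 11 with centring and 0 to 7 under each other limma alternative. The value was past the test as deposited or under the alternative for 4 of them, all after quantile normalization, Hspa8 (0.0412), Tmsb10 (0.29), Pisd-ps3 (0.93) and Tcl1b3 (0.97), and 36 of 71 called lower lost the call there, while 22 not called before were higher. Without the block Cpa3, Hspa8 and Tmsb10 lost their call and Alox5 gained one. The causes were not tested.

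Without the replicate block 718 probe sets were lower and 21 higher, of the well-measured ones 540 and 3. Same-numbered arrays deviated from their group means with Pearson's r of -0.08, 0.32, -0.02 and 0.18, so the pairing rests on the number alone.

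The mean log2 signal of 42747 of 45037 probe sets did not exceed that of a background of 264, and 197 of these were called lower, 102 of them above background on all 4 norm exo arrays. Signals near background understate a fall.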
